A study of Mus musculus with 6 samples.

Results

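The mitochondrial protein import machinery was taken as all probes for genes whose name starts with Tomm or Timm, together with probes for *Samm50*, *Mtx1*, *Mtx2*, *Dnajc19*, *Grpel1*, *Grpel2*, *Pam16*, *Pmpca*, *Pmpcb*, *Mipep*, *Chchd4*, *Gfer*, *Immp1l* and *Immp2l*. This gave 80 of the 56605 probes on the array, for 40 of 37074 gene names. One of the names, *Tomm6os*, is an RNA transcribed opposite to *Tomm6*, which leaves 39 protein-coding members. They were measured in LSK cells (lineage marker-/Sca1+/cKit+), the bone marrow fraction that holds haematopoietic stem cells and early progenitors. The control mice were Atg5w/w;VaviCre+ and the other mice were Atg5f/f;VaviCre+, so both groups carried the Cre transgene, which is driven by the Vav promoter in blood-forming cells and their descendants, and both were C57BL/6 mice aged P6–P8 (postnatal days 6 to 8). Each group had 3 samples, with 1 one-colour Agilent array per sample. The sources do not say whether a sample came from a single mouse or from a pool, so that every n, SD and p refers to arrays and the spread may be partly technical. Atg5 is needed to build autophagosomes, and the comparison asks how its loss changes the transcripts of neonatal LSK cells.

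Nearly all mitochondrial proteins are made in the cytosol from nuclear genes and have to cross the mitochondrial membranes to reach their place. The TOM complex is the common entry gate in the outer membrane, the SAM complex inserts barrel-shaped proteins there, and small TIM chaperones and a disulfide relay serve the space between the membranes. In the inner membrane, TIM23 with its motor pulls proteins that carry a presequence into the matrix, TIM22 inserts carrier proteins, and processing peptidases then cut the presequence off.

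Of the 39 coding members, 38 were tested and 29 rose on the arrays labelled Atg5f/f;VaviCre+, while 0 fell. The median log2 fold change was 0.56 over the 38 genes and −0.03 over all 20778 genes tested on the array. *Tomm40*, the pore of the TOM complex, rose most, by 1.11 on the log2 scale, and *Samm50*, *Tomm5*, *Timm8a1*, *Tomm20* and *Timm23* followed. *Tomm34*, *Tomm20l*, *Timm21*, *Grpel2*, *Timmdc1*, *Immp1l*, *Immp2l*, *Mtx2* and *Gfer* did not pass the threshold.

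These calls came from limma with Benjamini-Hochberg adjustment over all 32074 probes tested and a threshold of 0.05, and a gene is represented by its brightest tested probe. The whole array moved too. In the same fit, 18.7% of all genes were called higher and 15.3% lower, and in 29.6% every array labelled Atg5f/f;VaviCre+ lay above every control array. Among the import genes, 35 of 38 had every array labelled Atg5f/f;VaviCre+ above every control array. The 38 representing probes were well above background on all 6 arrays, so that none of them passed the filter through 1 group alone. The remaining member, *Timm8a2*, was too dim on most arrays (well above background on 1 of the 3 controls and 0 of 3 arrays labelled Atg5f/f;VaviCre+) and was not tested. *Tomm20l* had the only negative value, −0.01 with an unadjusted p of 0.951 in limma. With control replicate 1 or control replicate 2 left out, 0 of the 38 genes passed the threshold (31 and 29 had an unadjusted p under 0.05), although the median log2 fold change was 0.54 without either; with quantile normalisation 19 passed, and with no filter on dim probes 15.

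The promoters of the gene with the largest rise in each compartment are shown here, since members of all compartments moved in the same direction. The 250 bases before the transcript start are given 5′ to 3′ from RefSeq, build GRCm38.p6, and capitals mark every match, on either strand, to the motifs searched.
Tomm40, chr7:19715430-19715679, minus strand: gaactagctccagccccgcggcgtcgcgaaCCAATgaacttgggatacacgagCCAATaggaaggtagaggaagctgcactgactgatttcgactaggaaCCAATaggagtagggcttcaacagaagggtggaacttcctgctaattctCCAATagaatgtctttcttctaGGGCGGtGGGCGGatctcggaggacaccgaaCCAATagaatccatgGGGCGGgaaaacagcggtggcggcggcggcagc
Timm23, chr14:32201892-32202141, minus strand: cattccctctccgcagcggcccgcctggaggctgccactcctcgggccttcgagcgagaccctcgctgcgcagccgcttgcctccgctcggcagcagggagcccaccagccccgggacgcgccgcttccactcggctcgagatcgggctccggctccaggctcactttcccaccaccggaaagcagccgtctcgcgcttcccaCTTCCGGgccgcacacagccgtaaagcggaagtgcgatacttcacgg
Timm8a1, chrX:134541671-134541920, minus strand: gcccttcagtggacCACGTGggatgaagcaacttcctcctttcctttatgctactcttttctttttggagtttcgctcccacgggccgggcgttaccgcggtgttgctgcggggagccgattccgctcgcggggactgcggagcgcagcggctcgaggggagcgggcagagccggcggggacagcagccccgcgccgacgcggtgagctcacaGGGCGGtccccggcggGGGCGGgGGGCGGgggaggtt
Mipep, chr14:60784316-60784565, plus strand: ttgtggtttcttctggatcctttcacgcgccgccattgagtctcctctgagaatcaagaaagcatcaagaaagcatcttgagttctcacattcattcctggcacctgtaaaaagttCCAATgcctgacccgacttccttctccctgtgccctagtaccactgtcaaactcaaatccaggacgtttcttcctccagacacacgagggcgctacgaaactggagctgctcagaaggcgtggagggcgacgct

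The motifs were NRF1 (CGCATGCG), ETS (CCGGAAG), the E-box (CACGTG), YY1 (AAGATGGC), the CCAAT box (CCAAT), the antioxidant response element (TGACNNNGC) and the GC box (GGGCGG), and the capitals do not overlap between motifs. Upstream of *Tomm40* lay 5 CCAAT boxes and 3 GC boxes, upstream of *Timm8a1* 1 E-box and 3 GC boxes, upstream of *Timm23* 1 ETS match and upstream of *Mipep* 1 CCAAT box. The wider window of 300 bases, with 50 bases past the start, could be matched for 34 of the 38 genes, which gave 36 promoters. An ETS match was found in 14 of the 36, or 38.9%, beside 11.6% of the 21263 promoters of protein-coding genes and 8.86% of all 32851 promoters. GC boxes stood in 63.9% of the import promoters beside 46.2% of coding and 35.7% of all promoters, E-boxes in 13.9% beside 7.84% and 7.15%, and YY1 matches in 8.33% beside 3.05% and 2.75%. CCAAT boxes were about as frequent as elsewhere (36.1% beside 38.2% and 37.4%), NRF1 matches were found in 2.78% beside 2.52% and 1.87%, and antioxidant response elements in 5.56% beside 13% and 12.4%. Among the promoters of genes that rose, 35.7% of 28 held an ETS match, and among those of the other members 50% of 8 did. These are counts of promoters: *Tomm34*, with an ETS match, enters the 8 more than once, and *Timm22*, without one, the 28. These shares are a description of letters in a window.

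**Figure D1:**
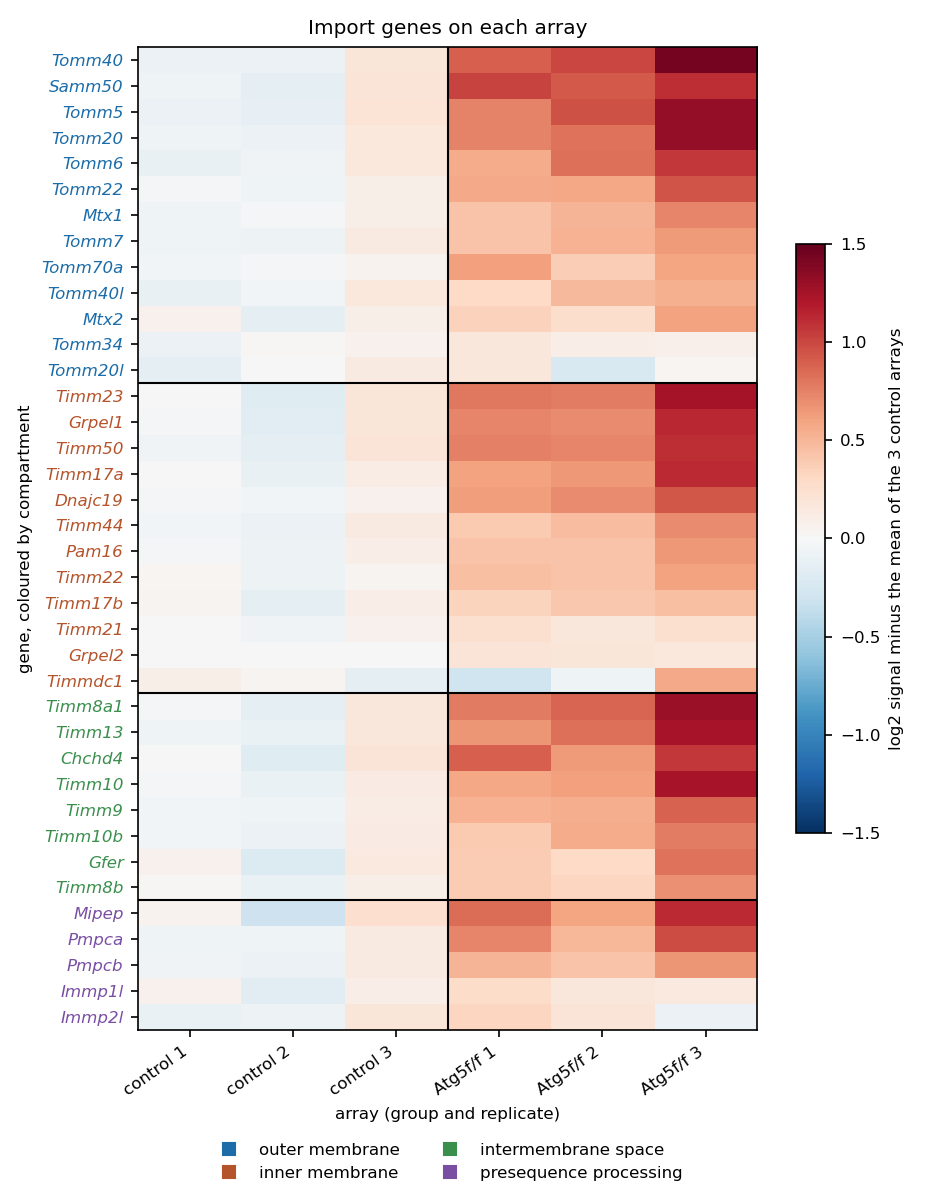
Each row is 1 of the 38 tested import genes and each column 1 array (Atg5f/f stands for Atg5f/f;VaviCre+), and the colour gives the log2 signal minus the gene's mean over the 3 control arrays, with genes sorted by fold change within each compartment. In 35 of 38 rows the 3 columns on the right are all above the 3 on the left, and replicate 3 on the right is the highest in 32 rows.

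The outer membrane held 13 tested genes, of which 10 rose, with a median log2 fold change of 0.56. All 7 genes of the TOM complex passed the threshold, at a median of 0.81. All signals below are log2 values relative to the array's 75th percentile, given for replicates 1, 2 and 3. *Tomm40* was at 3.09, 3.09 and 3.37 on the control arrays and at 4.08, 4.18 and 4.62 on the arrays labelled Atg5f/f;VaviCre+. The groups were apart, with replicate 3 the highest in each, and the log2 fold change was 1.11 ± 0.17 (SE, n = 3 per group, limma adjusted p = 0.0145), a 2.16-fold rise. The study itself picked *Tomm40* from these arrays, so its direction is not independent evidence.

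The receptors of the TOM complex recognise incoming proteins on the cytosolic face. *Tomm20*, the main presequence receptor, was at 3.50, 3.48 and 3.73 on the control arrays and at 4.31, 4.38 and 4.89 on the others, a log2 fold change of 0.96 ± 0.18 (SE, adjusted p = 0.0165). *Tomm22*, which joins the receptors to the pore, was at 3.81, 3.78 and 3.93 against 4.41, 4.42 and 4.78, with a log2 fold change of 0.70 ± 0.14 (SE, adjusted p = 0.0169). *Tomm70a*, the receptor for carrier proteins bound to cytosolic chaperones, was at 1.06, 1.09 and 1.16 against 1.72, 1.47 and 1.70, with a log2 fold change of 0.53 ± 0.12 (SE, adjusted p = 0.0193). None of the 3 receptors overlapped between groups, and for *Tomm70a* replicate 1 rather than replicate 3 was the highest. The small subunits that stabilise the pore rose 2.01-fold (*Tomm5*, at 4.29, 4.26 and 4.59 against 5.12, 5.33 and 5.70), 1.76-fold (*Tomm6*) and 1.44-fold (*Tomm7*).

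*Samm50*, the core of the SAM complex, had the lowest adjusted p among the representing probes of the members. It read 1.37, 1.30 and 1.63 in the controls against 2.45, 2.35 and 2.54 on the arrays labelled Atg5f/f;VaviCre+. The groups were wide apart beside their spread, with a log2 fold change of 1.01 ± 0.13 (SE, adjusted p = 0.0112). The metaxins *Mtx1* and *Mtx2*, its partners on the cytosolic side, moved less by their representing probes. *Mtx1* rose by 0.56 (adjusted p = 0.0204), and *Mtx2*, at 0.40, missed the threshold (adjusted p = 0.0578). Dimmer RefSeq mRNA probes gave 0.91 for *Mtx1* (adjusted p = 0.0121) and 0.36 for *Mtx2* (adjusted p = 0.0891). *Tomm40l*, a second form of the pore, rose by 0.44 (adjusted p = 0.0377). *Tomm34*, a cytosolic chaperone cofactor, was at 3.62, 3.73 and 3.77 against 3.88, 3.81 and 3.78, a difference of 0.11 ± 0.10 (SE, adjusted p = 0.415) with the lowest array of 1 group next to the highest of the other. *Tomm20l*, a relative of *Tomm20*, was at −2.95, −2.82 and −2.68 against −2.65, −3.04 and −2.79 and overlapped fully. Its tested probe has no position in the files, and the probe designed on its RefSeq mRNA was not well above background on any array.

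**Figure D2:**
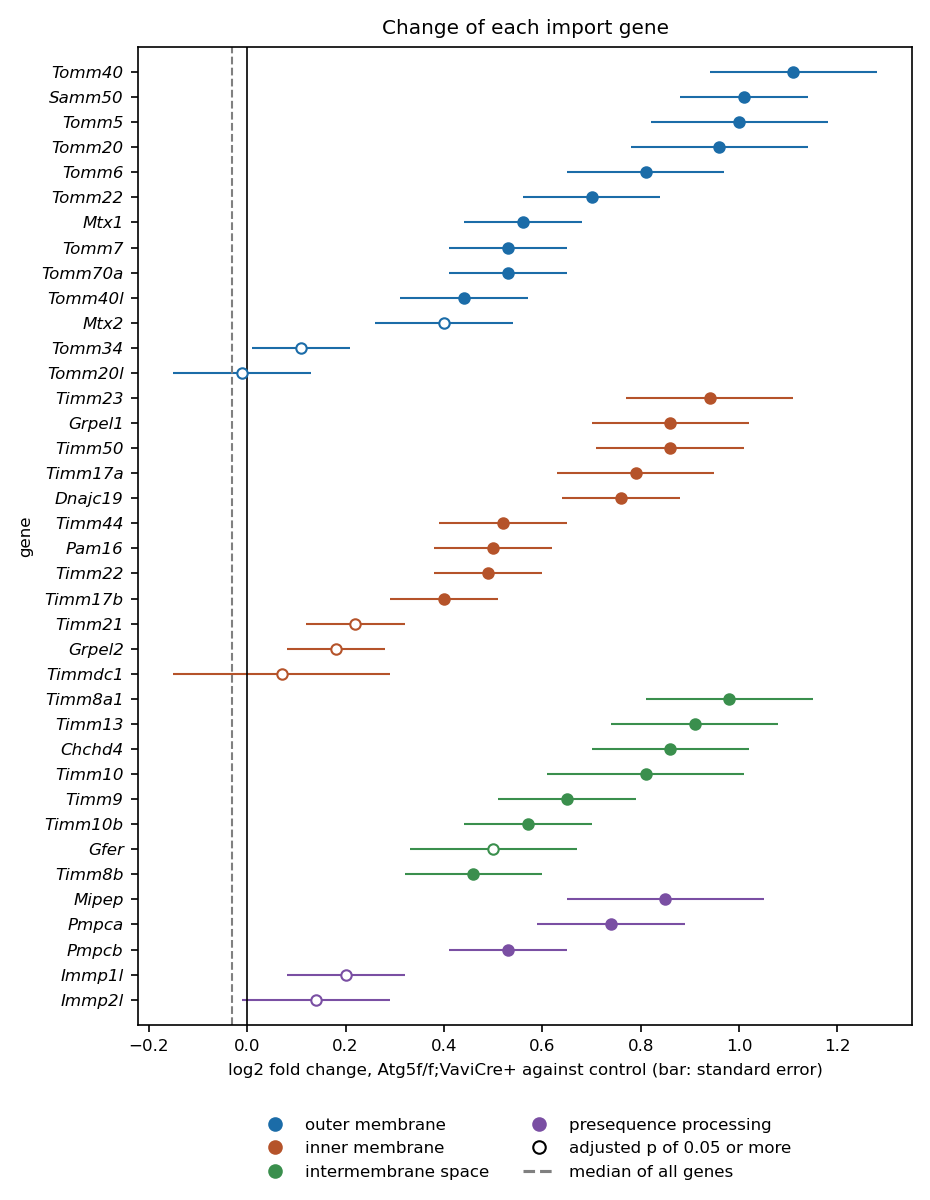
Points are log2 fold changes (Atg5f/f;VaviCre+ against control, 3 arrays each) of the 38 tested import genes and bars are limma standard errors. Filled points passed the threshold, open points did not, and the dashed line is the median of all genes at −0.03, to the right of which every gene lies.

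In the inner membrane 9 of 12 genes rose, with a median of 0.51 and a range from 0.07 to 0.94. The channel and its docking proteins came first. *Timm23*, which forms the presequence channel, was at 3.27, 3.10 and 3.46 on the control arrays and at 4.07, 4.04 and 4.53 on the arrays labelled Atg5f/f;VaviCre+, with a log2 fold change of 0.94 ± 0.17 (SE, adjusted p = 0.0163). *Timm50*, the receptor that hands proteins from TOM to TIM23, was at 1.29, 1.21 and 1.54 against 2.10, 2.08 and 2.45, with 0.86 ± 0.15 (SE, adjusted p = 0.0154). Both were apart between groups. The partner of *Timm23* in the channel exists in 2 forms: *Timm17a* was at 2.91, 2.79 and 3.02 against 3.51, 3.56 and 4.02, a rise of 0.79 (adjusted p = 0.0181), and *Timm17b* at 3.93, 3.76 and 3.99 against 4.23, 4.30 and 4.35, a rise of 0.40 (adjusted p = 0.0349). *Timm21*, which links the channel to the TOM complex, was at 0.29, 0.24 and 0.36 against 0.54, 0.47 and 0.54, and the difference of 0.22 missed the threshold (adjusted p = 0.123) although the groups were apart.

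The import motor uses mitochondrial Hsp70 and its helpers. *Dnajc19*, a J protein of the motor, was at 3.74, 3.72 and 3.82 on the control arrays and at 4.39, 4.47 and 4.69 on the others, a log2 fold change of 0.76 ± 0.12 (SE, adjusted p = 0.0147). *Pam16*, which holds the J protein in check, was at 3.76, 3.70 and 3.88 against 4.21, 4.21 and 4.43, a rise of 0.50 (adjusted p = 0.0224). *Timm44*, the anchor of Hsp70 at the channel, was at 2.91, 2.87 and 3.09 against 3.35, 3.42 and 3.67, a rise of 0.52 (adjusted p = 0.0261). The groups were apart for all 3. The nucleotide exchange factors differed: *Grpel1* was at 3.03, 2.91 and 3.25 against 3.79, 3.77 and 4.20, a rise of 0.86 (adjusted p = 0.0166), while *Grpel2* was at 2.15, 2.14 and 2.15 against 2.34, 2.33 and 2.31, a difference of 0.18 (adjusted p = 0.17). *Grpel2* varied by less than 0.1 within each group and its groups were apart, but limma weighs that spread together with the spread of all probes.

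*Timm22*, the channel for carrier proteins, was at 1.94, 1.84 and 1.96 on the control arrays and at 2.36, 2.34 and 2.52 on the arrays labelled Atg5f/f;VaviCre+, a rise of 0.49 (adjusted p = 0.0199). *Timmdc1*, which carries the family name but acts in the assembly of respiratory complex I, was at 2.40, 2.35 and 2.18 against 2.01, 2.25 and 2.88. It overlapped between groups, and its difference of 0.07 ± 0.22 (SE, adjusted p = 0.815) was the smallest of the inner membrane list.

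The intermembrane space list had the highest median of the 4 compartments, 0.73, with 7 of 8 tested genes higher and a range from 0.46 to 0.98; the differences between compartments were not tested. The small TIM proteins escort hydrophobic proteins between the membranes. *Timm8a1* was at 2.80, 2.67 and 2.99 on the control arrays and at 3.60, 3.69 and 4.11 on the others, a log2 fold change of 0.98 ± 0.17 (SE, adjusted p = 0.0153). *Timm13*, its partner, was at 4.01, 3.97 and 4.24 against 4.73, 4.90 and 5.31, a rise of 0.91 ± 0.17 (SE, adjusted p = 0.0167). The other pair of partners, *Timm9* and *Timm10*, rose as well. *Timm9* was at 2.92, 2.89 and 3.07 against 3.48, 3.50 and 3.85 (0.65, adjusted p = 0.0188), and *Timm10* at 3.81, 3.73 and 3.95 against 4.41, 4.44 and 5.07 (0.81, adjusted p = 0.0239). *Timm10b*, which holds these chaperones at TIM22, rose by 0.57. *Timm8b*, at 4.06, 3.94 and 4.13 against 4.43, 4.36 and 4.73, had the smallest rise (0.46, adjusted p = 0.0395), and its adjusted p was 0.0532 or more whenever any 1 array was left out.

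The disulfide relay traps cysteine-rich proteins by oxidising them. *Chchd4*, the mouse form of Mia40, was at 1.34, 1.16 and 1.54 on the control arrays and at 2.24, 1.98 and 2.41 on the arrays labelled Atg5f/f;VaviCre+, a log2 fold change of 0.86 ± 0.16 (SE, adjusted p = 0.0165). *Gfer*, the oxidase that regenerates it, was at 0.62, 0.35 and 0.70 against 0.94, 0.86 and 1.37. These groups were apart but the rise of 0.50 ± 0.17 missed the threshold (SE, adjusted p = 0.0625), whereas a second, dimmer *Gfer* probe gave 1.01 (adjusted p = 0.0124).

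Of the 5 processing peptidases, 3 rose, with a median of 0.53. *Pmpca* and *Pmpcb* encode the subunits of the peptidase that removes presequences in the matrix. *Pmpca* was at 0.14, 0.13 and 0.33 against 0.93, 0.70 and 1.18 (0.74, adjusted p = 0.0178), and *Pmpcb* at 2.97, 2.93 and 3.16 against 3.53, 3.45 and 3.68 (0.53, adjusted p = 0.021). *Mipep*, which trims a further short piece from some precursors, was at −1.41, −1.77 and −1.21 against −0.62, −0.87 and −0.34 (0.85 ± 0.20, SE, adjusted p = 0.0219). The groups were apart for all 3. The inner membrane peptidases differed from these in that neither passed the threshold. *Immp1l* was at 2.98, 2.76 and 3.02 against 3.20, 3.09 and 3.07 (0.20, adjusted p = 0.218), with the groups just apart, and *Immp2l* at 1.14, 1.17 and 1.42 against 1.56, 1.44 and 1.16 (0.14, adjusted p = 0.471), with the groups overlapping.

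Related genes were set beside each other as the difference of their log2 signals within an array, which removes a constant shift of the whole array but no scaling that depends on brightness. The difference itself depends on the probes, and only its change between groups is read. For *Tomm40* minus *Tomm40l* it came to 3.29, 3.22 and 3.30 in the controls against 3.87, 3.78 and 4.17 on the arrays labelled Atg5f/f;VaviCre+, a change of 0.67. For *Grpel1* minus *Grpel2* it was 0.89, 0.78 and 1.10 against 1.45, 1.44 and 1.90, also a change of 0.67. *Timm17a* minus *Timm17b* gave −1.02, −0.96 and −0.98 against −0.72, −0.74 and −0.33, a change of 0.39. In these pairs the first gene rose more than the second on every array labelled Atg5f/f;VaviCre+. *Tomm20* over *Tomm20l* (0.97), *Timm8a1* over *Timm8b* (0.52) and *Pmpca* over *Pmpcb* (0.21) were apart in the same way. For *Mtx1* and *Mtx2* (0.15), *Immp1l* and *Immp2l* (0.06) and *Dnajc19* and its relative *Dnajc15* (0.04) the groups overlapped. A 2-sided exact permutation test on 3 arrays against 3 cannot go below p = 0.1, which the 6 pairs that were apart reached, and over the 9 pairs the Benjamini-Hochberg adjusted value was 0.15, so that no pair passed the threshold. How often other pairs of genes on the array are apart in this way was not counted. With quantile normalisation 5 pairs were apart, and the change fell to 0.37 for *Tomm20* over *Tomm20l*, 0.35 for *Tomm40* over *Tomm40l* and 0.02 for *Mtx1* over *Mtx2*, went to 0.43 for *Pmpca* over *Pmpcb*, and turned to −0.09 for *Immp1l* and *Immp2l* and to −0.01 for *Dnajc19* and *Dnajc15*.

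**Figure D3:**
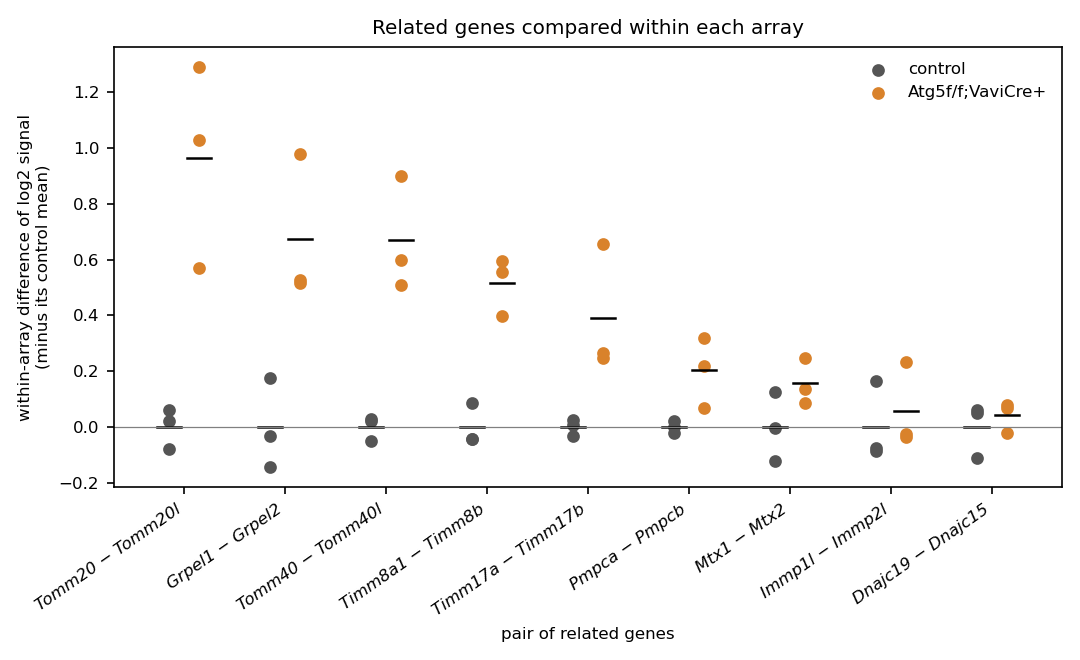
For each of 9 pairs, points give the difference of log2 signal between the named genes within 1 array, minus the mean of that difference over the control arrays (grey, control, orange, Atg5f/f;VaviCre+, with bars at the group means). The 6 pairs on the left are apart between groups and the 3 on the right overlap.

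Of the 21 members with several tested probes, 11 agreed to within 0.5 on the log2 scale and 10 did not. *Tomm40* had 3 probes on its RefSeq mRNAs, starting at transcript bases 383, 725 and 1561. The probe at 1561 represents the gene and lies on chromosome 7 of mm9 from 20286707 to 20286766. The other 2 are 5′ to 3′:
Tomm40 probe from base 383, chr7:20299087-20299677 of mm9: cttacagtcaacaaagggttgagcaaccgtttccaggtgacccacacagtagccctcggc
Tomm40 probe from base 725, chr7:20296115-20296174 of mm9: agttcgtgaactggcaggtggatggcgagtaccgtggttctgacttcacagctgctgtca

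The first of these spans 591 bp of genome with 60 bases and so crosses an exon junction. It was at −1.28, −1.31 and −1.06 on the control arrays and at −0.07, −0.06 and 0.24 on the arrays labelled Atg5f/f;VaviCre+, a log2 fold change of 1.25 ± 0.14 (SE, adjusted p = 0.00805), and the second gave 1.26. All 3 probes along the *Tomm40* mRNA thus rose. Another probe under the same name, designed on a cDNA clone from the opposite strand, gave −0.12 (adjusted p = 0.472).

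Probes designed on other transcripts of the member genes gave lower values in general. Of 55 tested probes on RefSeq mRNAs, 44 were higher and 1 lower, with a median of 0.77, and of 14 tested probes on cDNA clones, Ensembl transcripts or a non-coding RNA, 1 was higher and 2 lower, with a median of 0.03. This split was made after the values were seen, and the probes of a gene are not independent of each other. *Timm23* gave 0.94 and 0.02, *Tomm6* 0.81 and 0.09, *Pmpca* 0.74 and 0.03, and *Pam16* 0.50 and −0.35 (adjusted p = 0.0478), the RefSeq mRNA first in each. *Timm9* gave 0.65 and 0.77 on its mRNA and 0.08 and 0.13 on other transcripts. *Timm10b* gave 0.57 and 0.37 on its mRNA and −0.55 and −0.49 on others, the former adjusted p = 0.0295. *Mipep* gave 0.85 and 0.96 on its mRNA and 0.39 on a non-coding transcript. *Gfer* gave 0.50 and 1.01, both on its mRNA. *Dnajc19* is the exception, with 0.76 and 0.79 on 2 of its mRNAs and −0.65 (adjusted p = 0.0229) on another, which read −1.94, −2.20 and −2.39 in the controls against −2.68, −2.81 and −3.00 on the other arrays. Which transcripts of these genes LSK cells contain was not tested. *Tomm6os*, measured by a strand-specific probe of its own, differed by 0.27 (adjusted p = 0.187).

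**Figure D4:**
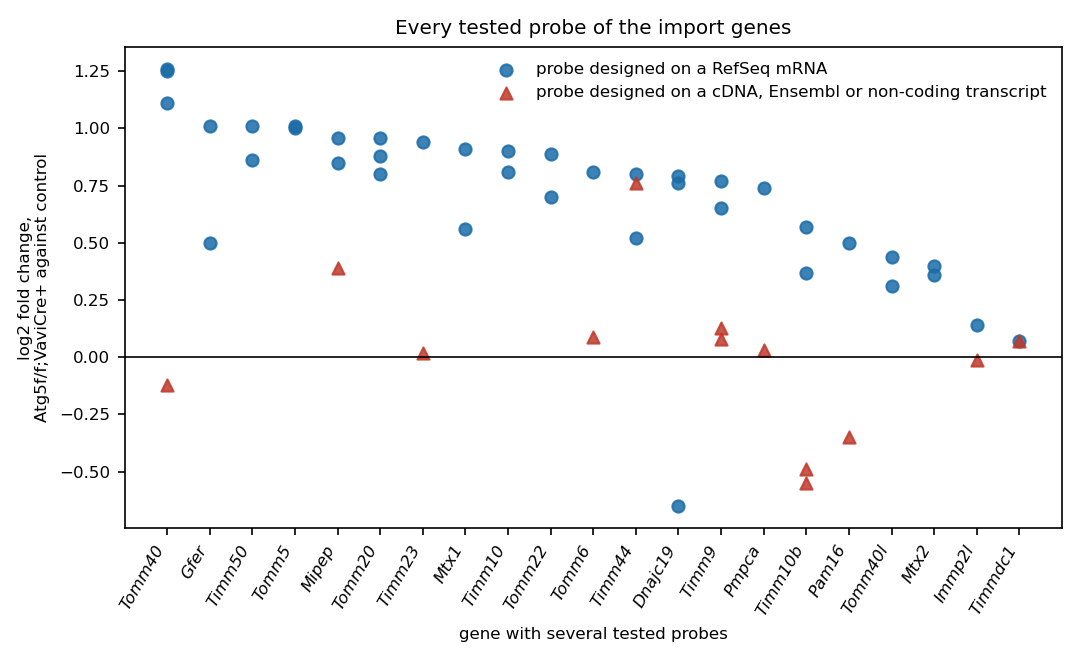
Every tested probe of the 21 import genes with several tested probes is plotted by its log2 fold change (Atg5f/f;VaviCre+ against control), with circles for RefSeq mRNAs and triangles for other transcripts. Circles lie between 0.07 and 1.26 apart from 1 probe of *Dnajc19* at −0.65, and triangles between −0.55 and 0.76.

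Most members shared the array on which they were highest. Replicate 3 of the arrays labelled Atg5f/f;VaviCre+ was the highest of all 6 arrays for 32 of the 38 genes and replicate 1 for the other 6, whereas the lowest array of that group was replicate 1 for 18 genes, replicate 2 for 16 and replicate 3 for 4. Among the control arrays, replicate 3 was the highest for 37 genes and replicate 2 the lowest of all arrays for 29. The same counts over all genes on the array were not made, so this order is not read as particular to the import genes. Relative to each gene's control mean, the median over the 38 genes came to −0.04, −0.09 and 0.13 in the controls against 0.51, 0.51 and 0.79 on the other arrays. The 37 representing probes with a position lay on 18 chromosomes, with *Timm17b* and *Timm8a1* on the X chromosome. Of all genes tested 47.6% had a positive fold change, and of the 38 import genes 37 did. In bulk RNA, more cells that express these genes and more of their RNA per cell cannot be told apart.

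Factors that work with the import machinery but are no members moved in the same direction. Of 21 such genes, 14 rose and 0 fell, with a median of 0.56, and none of those with a negative value had an unadjusted p under 0.05 in limma. *Hspd1*, the matrix chaperonin, rose most, from 4.68, 4.67 and 5.03 to 5.65, 5.62 and 6.24 (1.04, adjusted p = 0.0168). Its co-chaperonin *Hspe1* rose by 0.90 (adjusted p = 0.0173) and *Pitrm1*, which degrades cleaved presequences, by 0.89 (adjusted p = 0.0168). *Hspa9*, the Hsp70 of the import motor, was at 3.48, 3.38 and 3.69 against 4.25, 4.23 and 4.70 (0.88, adjusted p = 0.0166), apart between groups like *Hspd1*. *Romo1*, an inner membrane protein tied to the TIM23 channel, rose by 0.68 (adjusted p = 0.0168). Among the dimmer probes of this list, 1 each for *Dnaja1* (−0.43), *Mtch2* (−0.36) and *Mtx3* (−0.80) was lower.

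Among 8 genes that sense or answer a failure of import, 7 were found by name and tested, 2 rose and 0 fell, with a median of 0.20. Since 18.7% of all genes were called higher and 15.3% lower, 2 of 7 is not read as a change of the list. *Atf4*, the transcription factor of the integrated stress response, was at 5.18, 5.21 and 5.29 against 5.69, 5.79 and 6.17 (0.66, adjusted p = 0.0209). *Parl*, an inner membrane protease, rose by 0.47 (adjusted p = 0.0239). Probes disagreed in this list too, as was found after the values were seen. *Ddit3*, a stress-induced transcription factor, is represented by a probe on an Ensembl transcript at −0.24 (adjusted p = 0.625), whereas its dimmer RefSeq mRNA probe was higher (0.84, adjusted p = 0.0449). A second RefSeq mRNA probe of *Eif2ak1*, a kinase that starts the stress response, was higher (0.57, adjusted p = 0.0227, against 0.20 for the representing one), and a cDNA probe of *Oma1*, a stress-activated protease, was lower (−0.78, adjusted p = 0.0161, against 0.16). *Pink1*, the kinase that builds up on mitochondria when import stalls, was chosen after its values were seen. It was at 2.96, 2.91 and 2.96 on the control arrays and at 2.66, 2.33 and 1.76 on the arrays labelled Atg5f/f;VaviCre+, and the difference of −0.69 ± 0.22 lay just outside the threshold (SE, adjusted p = 0.0506, unadjusted p = 0.0175). By this probe every array labelled Atg5f/f;VaviCre+ lay below every control array, the reverse of what most import genes showed. A second, dimmer RefSeq mRNA probe of *Pink1* overlapped between groups (−0.32, limma adjusted p = 0.339).

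Some other lists moved with the groups. Over all genes, 18.7% were called higher and 15.3% lower. The counts in the B cell, macrophage, T and NK cell and LSK surface lists below lie near or below these shares. All 12 proliferation genes rose, with a median of 0.78, and their summed linear signal was 123 to 157 in the controls against 197 to 262 on the other arrays. As with the import genes, control replicate 2 was the lowest and replicate 3 of the arrays labelled Atg5f/f;VaviCre+ the highest in the list's median. Of 9 erythroid genes 4 rose and 3 fell, from *Car1* (3.80) to *Hba-a1* (−2.26), and their sum was 222 to 501 in the controls against 78.3 to 122. *Hba-a1*, an alpha-globin gene, made up most of that sum, and without it the range was 11 to 22.4 against 14.3 to 44.9, with *Car1*, *Klf1*, *Tfrc* and *Epor* as the genes that rose. *Ermap* did not pass by its representing probe (−0.11), while its dimmer RefSeq mRNA probe was higher (2.85, limma adjusted p = 0.0187). The stromal list had 4 of 7 tested genes lower and 0 higher, with sums of 10 to 40 against 5.67 to 8.78, *Col1a1* at −4.14 on control replicate 1 and at 3.23 and 2.95 on the other control arrays, and *Col3a1*, *Pdgfra* and *Cdh5* not well above background on any array. Of 10 neutrophil genes 4 rose and 5 fell (sums 181 to 299 against 244 to 303). *Mpo*, which made up most of the sum on the arrays labelled Atg5f/f;VaviCre+, rose with *Ctsg*, *Prtn3* and *Ly6g*. *Camp*, *Ltf*, *Ngp*, *S100a8* and *S100a9* fell (−1.21 to −1.38). Of 5 macrophage genes 0 rose and 1 fell (4.82 to 6.38 against 6.55 to 6.66), of 8 B cell genes 1 rose (9.26 to 12.4 against 10.7 to 17.9), and of 6 megakaryocyte genes 2 rose and 3 fell (7.69 to 9.2 against 6.95 to 7.07). Of 5 T and NK cell genes none passed the threshold by its representing probe (7.21 to 10.8 against 10.2 to 11.4), with *Cd3g*, *Cd8a* and *Ncr1* not well above background. *Klrb1c* was lower with the groups apart (−0.88, limma adjusted p = 0.0712), and a dimmer *Cd4* probe was called lower (−0.50, adjusted p = 0.0423). Unlike the import genes, some genes called in these lists met the filter on dim probes through a single group. *Cd79a*, the B cell gene that rose, cleared background in all 3 Atg5f/f;VaviCre+ samples but in just 1 control. For *Ppbp*, a megakaryocyte gene that fell, and for *Col1a1*, only the controls cleared it, 3 against 0. Their fold changes thus set a detected signal against readings near background. Of 8 surface genes of LSK cells 1 rose and 1 fell, with a median of −0.33 and sums of 138 to 149 against 93.4 to 154. *Ly6a*, which encodes Sca-1, rose by 1.57 and *Procr* fell by 1.56. The other 6 did not pass the threshold, and 3 of the 8 values were positive. Of those 6, *Kit* (−0.38, limma adjusted p = 0.0563) and *Flt3* (−0.87, adjusted p = 0.0675) were apart between groups. Dimmer probes of both were called lower (*Kit* −0.67 and −0.62, *Flt3* −0.85). The part of proliferation and of these cell types in the import result was not tested.

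**Figure D5:**
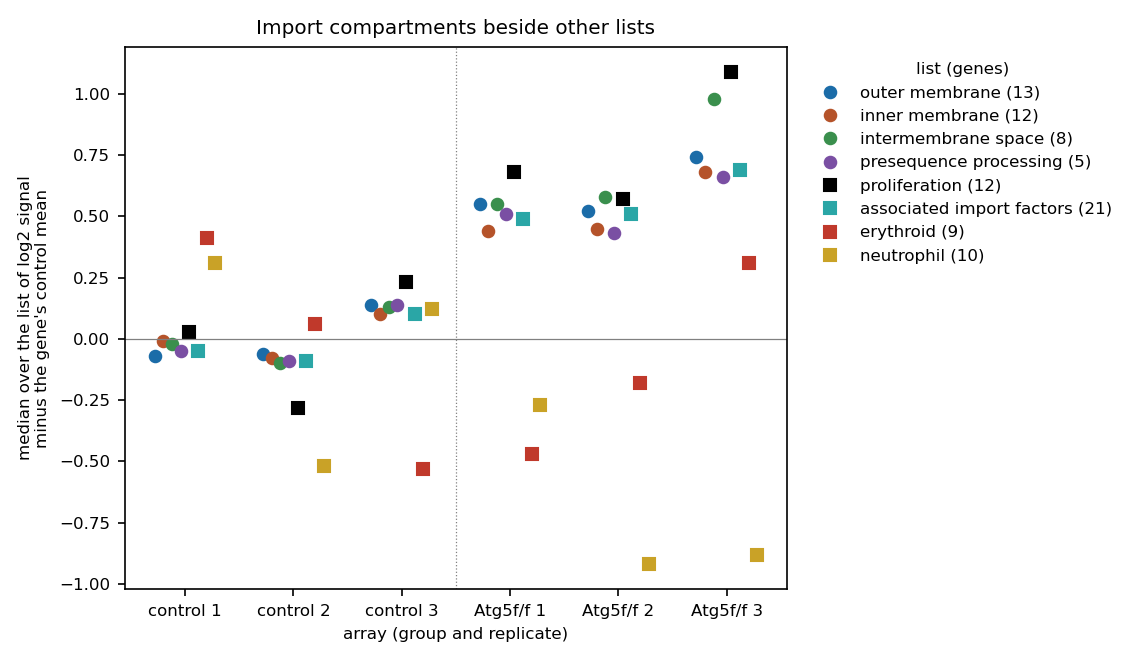
For each array (Atg5f/f stands for Atg5f/f;VaviCre+), points give the median over a list of log2 signal minus the gene's control mean, with the number of genes in each list in brackets. The 4 import compartments, the associated import factors and the proliferation genes are all above 0.4 on the 3 arrays on the right, while the erythroid and neutrophil lists scatter around or below 0.

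The arrays differed in ways that follow the groups. The 75th percentile of intensity ranged from 651.7 to 746.2 in the controls and from 620.3 to 881.4 in the other group, and 59.4% to 59.9% of spots were well above background on the former and 53.6% to 56.7% on the latter. All arrays lay on 1 slide scanned once, with the groups in different slide rows, so the row and the genotype cannot be told apart. The only probe for *Atg5* lies at chr10:44083997-44084056 of mm9 and read 1.10, 0.93 and 1.06 in the controls against 1.46, 1.51 and 1.74 on the other arrays (0.54, adjusted p = 0.0209). The targeted gene thus read higher in the group labelled Atg5f/f;VaviCre+; the sources used here do not say which exon was floxed, so the probe was not taken as a check of the labels, and every direction given here follows the labels, which no other value in the files was used to check. Under a percentile taken over the probes detected on all arrays, 13.2% of all genes were called higher and 24.8% lower, the median of all genes was −0.19 and that of the import genes 0.41, and the import genes stood 0.60 above all genes as they did with the main scaling; with quantile normalisation they stood 0.40 above.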

How the data were processed

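Total RNA of sorted LSK cells was hybridised to 1-colour Agilent arrays, 3 per group. The authors deposited scanner files with an intensity per spot, from which Agilent Feature Extraction (12.0.3.1 per the labels) had removed background and spatial trend, unscaled between arrays, and a value table with a signal that the authors had divided by the 75th percentile of the array. From the intensities, log2 values were computed in R 4.3.3 and centred per array on the 75th percentile of the 59305 non-control spots. Between 64 and 81 outlier-flagged spots an array were dropped, 0 spots were saturated, and spots of a probe were averaged. The 32074 probes that the scanner software called well above background at least 3 times in 6 arrays entered limma 3.58.1 (lmFit, eBayes, 2-sided), adjusted by Benjamini-Hochberg, at a threshold of 0.05. On simulated data of the same design and 32074 probes, 49 of 100 probes with a simulated log2 change of 1 and 80 of 100 with a change of 2 were called, along with 5 unchanged probes. All other simulated probes were left unchanged, whereas the real fit called 18.7% of genes higher and 15.3% lower. Because the adjustment depends on that share, the shares recovered in the simulation do not carry over to the real calls. Arrays have no depth to count, and their number limits the precision.

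The members and lists were chosen with earlier results of these data known. The named genes are the core subunits, the largest and smallest change in each compartment, members whose probes differ by over 0.5, at most 3 associated genes each way with *Hspa9*, *Hspd1* and *Romo1*, and the largest change in a cell type list. Other genes of the cell type lists were named after their values were seen. Promoters came from a RefSeq table, and probe positions from the files. Alternatives were normexp (offset 50), the deposited signal, quantile normalisation, a percentile over probes detected on all arrays, other filters, flagged spots kept, a trended eBayes, the replicate number as a block, the methods' t-test, the mean of a gene's probes, and each array left out. Slide and scan could not be fitted as blocks because all arrays shared them. The sort data and quantitative PCR of the study were not analysed here, and 1 gene of the import stress list is not reported here.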

Additional observations from a re-analysis of the deposited data

How the results depend on the processing

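The number of import genes called higher was 26 to 31 of 38, with 0 lower, under normexp (31), the other percentile (26), the deposited signal (30), a filter on all 6 arrays (31), flagged spots kept (29), an intensity trend (31), the mean of a gene's probes (27) and the replicate number as a block (30). Same-numbered arrays deviated together with r of −0.07, 0.19 and 0.11, which did not meet the criterion for pairing; replicates 2 and 3 correlated best with their own number and replicate 1 did not, a hint from the data and not from the design. With quantile normalisation 19 import genes were called (inner membrane 5, intermembrane space 4), and the medians were 0.38 for import, 0.40 for outer membrane, 0.27 for inner membrane, 0.45 for intermembrane space and 0.26 for processing genes; the cause was not tested. The other percentile gave 0.41 for import and 0.40 for outer membrane genes, by its own shift of all genes. Without a filter on dim probes, which adds probes to the adjustment, 15 were called (outer membrane 6, inner membrane 5, intermembrane space 3, processing 1) with 9 associated factors and 0 stress genes. The methods' t-test called 0 import, associated or stress genes after adjustment and 32 import genes before. The count of stress genes higher was 0 with quantile normalisation, and 1 stress gene was lower under normexp, quantile normalisation, the other percentile, the filter on all 6 arrays and the intensity trend. Of the associated factors 1 was lower under the other percentile and with the mean of probes. By the mean of probes *Timm10b* turned to −0.02 (adjusted p = 0.867). Leaving out 1 array gave 0 to 28 import genes higher, 0 to 10 in the outer membrane, 0 to 9 in the inner membrane, 0 to 6 in the intermembrane space, 0 to 3 processing genes, 0 to 13 associated factors and 0 to 2 stress genes, with 0 to 2 stress genes lower. The zeros came without control replicate 1 or 2, where 330 and 251 of all genes were called; the count was 28 without control replicate 3 and 28, 24 and 26 without replicate 1, 2 or 3 of the arrays labelled Atg5f/f;VaviCre+. The median over the import genes was 0.49 to 0.64 in these.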
